A study of Mus musculus with 120 samples.

Results

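The glypican genes Gpc1, Gpc2, Gpc3, Gpc4, Gpc5 and Gpc6 were followed through the authors' lists of differentially methylated windows between App-NLGF and wild-type mice. A window of 1 kb counted for a glypican if it overlapped the RefSeq gene body or lay within 10 kb of it. Of the 8961 windows in the authors' deposited table, 17 met this rule, and they fell at 5 of the 6 genes. The windows were chosen by the authors' adjusted p and methylation difference, so the differences and adjusted p-values below describe these windows and are not tested again here.

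The study measured DNA methylation by whole-genome bisulfite sequencing in 120 libraries, 60 from hippocampus and 60 from blood. In each tissue, mice labelled APP-nlgf and mice labelled Wild-type were sampled at postnatal week 3, 8 or 24, with 10 libraries per group, 5 of each sex. App-NLGF mice carry Swedish, Iberian and Arctic mutations and a humanised amyloid-beta sequence in their own App gene and develop amyloid plaques while the precursor stays under the control of the native promoter. The labels give no strain background or littermate status for the wild-type mice. Both tissues are mixtures of cell types, so a shift in cell mixture and a change of methylation within a cell type cannot be told apart. Only the authors' called windows were used, without methylation levels or library values, so the depth is unknown and the spread among the mice cannot be shown. Differences are in percentage points, and the name of the comparison was taken to mean App-NLGF minus wild type. With the opposite order, higher and lower would change places throughout. A window absent from the table did not differ, missed the authors' thresholds (an adjusted p under 0.1 and at least 10 points in all listed windows) or was too thinly covered.

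Glypicans are heparan sulfate proteoglycans held on the outer face of the cell membrane by a lipid anchor. Their sugar chains bind growth factors and morphogens such as Wnt, Hedgehog and Fgf proteins, and enzymes can release them from the surface. In brain, Gpc1 is a neuronal and axonal glypican and Gpc2 marks immature neurons. Gpc4 and Gpc6 are released by astrocytes and promote the formation of excitatory synapses, and Gpc5 is another glypican of astrocytes. Gpc3 limits growth during development. Heparan sulfate proteoglycans are also found in amyloid plaques and bind amyloid-beta.

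The genes differ greatly in length, and with it in the room for windows. Gpc5 (chr14:115092201-116525192, 1.43 Mb) and Gpc6 (chr14:116924920-117979529, 1.05 Mb) lie one after the other on chromosome 14. Gpc4 (chrX:52051007-52164923, 114 kb) and Gpc3 (chrX:52272426-52613974, 342 kb) are neighbours on X. Gpc1 (chr1:92831645-92860211) spans 28.6 kb and Gpc2 (chr5:138273657-138280026) 6.37 kb. Positions are on mm10, and gene bodies are those of RefSeq on GRCm38.p6. Exons and introns were not separated here.

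The start of Gpc5 is the place in the family where a called window covered a promoter sequence held in the RefSeq table used. That window (chr14:115092001-115093000) took in 264 of the 300 bases from 250 before to 50 after the start, and all 17 CG dinucleotides among them. The promoter of Gpc4, the glypican with no called window in any list, is shown for contrast and holds 22. Both are RefSeq sequences on GRCm38.p6, 5′ to 3′ on the strand of the gene, with each CG in capitals, since CG is where most methylation in mammalian DNA sits. Gpc5 is on the plus strand (chr14:115091965-115092264) and Gpc4 on the minus strand (chrX:52164874-52165173).
Gpc5: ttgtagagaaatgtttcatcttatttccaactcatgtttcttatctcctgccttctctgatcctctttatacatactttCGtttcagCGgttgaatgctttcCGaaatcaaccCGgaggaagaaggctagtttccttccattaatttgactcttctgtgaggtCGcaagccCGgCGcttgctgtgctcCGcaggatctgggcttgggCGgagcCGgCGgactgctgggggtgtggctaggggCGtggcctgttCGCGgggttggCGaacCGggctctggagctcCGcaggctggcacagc
Gpc4: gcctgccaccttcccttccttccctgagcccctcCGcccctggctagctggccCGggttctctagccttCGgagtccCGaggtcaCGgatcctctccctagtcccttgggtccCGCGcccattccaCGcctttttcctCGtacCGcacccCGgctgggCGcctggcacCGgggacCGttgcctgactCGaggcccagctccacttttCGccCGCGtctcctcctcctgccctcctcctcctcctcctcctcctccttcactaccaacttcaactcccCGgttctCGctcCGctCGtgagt
The CG sites of Gpc5 are absent from the 5′ part of the sequence and gather toward the start. Of 32619 promoters of this length, 70.1% held as many CG as Gpc5 or fewer, with a median of 7. Blood at week 8 was the list in which the Gpc5 start was called, and its lower windows overlapped 1764 promoters (5.41% of all) with a median of 22 CG. Among those promoters 30.6% had as many CG as Gpc5 or fewer. The promoters of Gpc2 and Gpc3 held 26 and 30 CG and overlapped no called window.

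Across the lists, glypican windows went one way within 4 of the 5 lists that held any. In hippocampus at week 3, 2 of 6 glypicans had a window, Gpc1 and Gpc5, where 2.6% of 21631 coding genes had one (0.689% a higher and 1.96% a lower one), and all 3 windows were lower in App-NLGF. In hippocampus at week 8, 2 of 6 had a window, Gpc5 and Gpc6 (1.74% of coding genes, 1.04% with a higher and 0.74% with a lower one), and both windows were higher. In hippocampus at week 24 no glypican had a window (2.43% of coding genes, 1.41% with a higher and 1.08% with a lower one). In blood at week 3, 3 of 6 had a window, Gpc1, Gpc3 and Gpc5 (2.79% of coding genes, 1.77% with a higher and 1.06% with a lower one), with 2 windows higher and 2 lower. Blood at week 8 had 3 of 6 with a window, Gpc2, Gpc5 and Gpc6 (19.5% of coding genes, 0.966% with a higher and 18.8% with a lower one), and all 6 windows were lower. Blood at week 24 had 2 of 6 with a window, Gpc1 and Gpc5 (1.25% of coding genes, 1.04% with a higher and 0.213% with a lower one), and both were higher. These shares exceed the share of coding genes in each list but week 24 of hippocampus. The members were chosen with these counts known, however, and long genes hold more windows.

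In these 4 lists the glypican windows had the direction of most windows in the list. Of all windows, 29.5% were higher in hippocampus at week 3, 54.6% in hippocampus at week 8 and 11.1% in blood at week 8. For blood the share was 82.5% at week 24, and 63.2% at week 3, where the glypican windows were evenly divided. Over the 6 lists 11 glypican windows were lower and 6 higher, and 33.1% of all listed windows were higher. The median absolute difference of the 17 windows was 13.9 points and that of all 8961 was 12.6 points in the authors' deposited table. Pooled values mix the lists, since blood at week 8 gave 4526 of the 8961 windows but 6 of the 17. Within lists, the glypican median was below the list median in hippocampus at week 8 (11.6 against 13.5 points). The same held in blood at week 3 (14.6 against 14.9) and at week 8 (11.5 against 11.7). The glypican median was above it in hippocampus at week 3 (15.1 against 13.8) and blood at week 24 (17.7 against 13.95). These glypican medians rest on 2 to 6 windows each. None of the 17 glypican positions was called in more than 1 list.

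**Figure D1:**
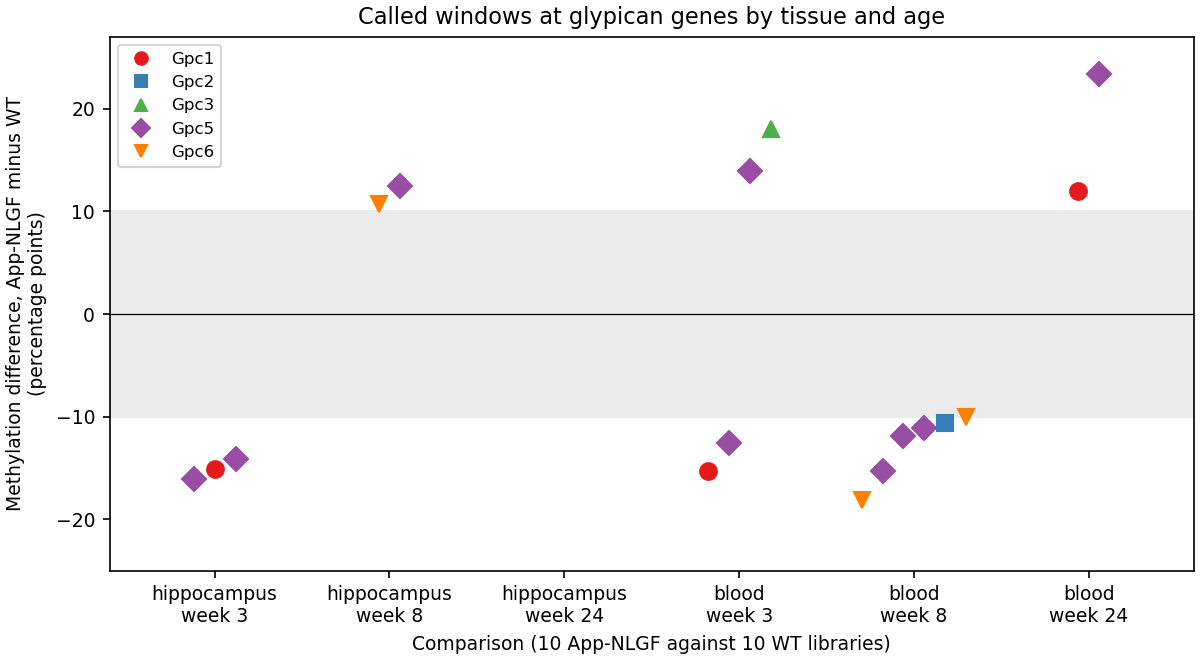
Methylation difference (App-NLGF minus wild type, percentage points) of each of the 17 called windows at a glypican gene, by tissue and week, with the symbol giving the gene. The grey band spans the differences of under 10 points that the lists do not hold. Hippocampus at week 24 has no point, and all 6 points of blood at week 8 lie below 0.

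Gpc5 held 9 of the 17 windows, all overlapping its gene body, 6 lower and 3 higher, in 5 of the 6 lists. In the authors' deposited table hippocampus at week 3 had a window 825 kb into the gene at -16.0 points (chr14:115917001-115918000, adjusted p = 0.0960). A further hippocampal window of that age lay 76.2 kb before the far end at -14.1 points (chr14:116448001-116449000, adjusted p = 0.0598) in the authors' deposited table. Both were lower in App-NLGF and lay in the distal part of the gene. At week 8 the hippocampal window of Gpc5 in the authors' deposited table was higher, at 12.5 points (chr14:116175001-116176000, adjusted p = 0.0920), and lay between those of week 3. None of these hippocampal calls had an adjusted p under 0.05. The lists differ in the adjusted p that a given p receives, so adjusted p-values do not compare between lists. The blood window over the Gpc5 start at week 8 had a larger unadjusted p than each of these calls, but an adjusted p of 0.0472.

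Blood windows of Gpc5 lay mostly in its proximal part. At week 8 the authors' deposited table has the window over the start at -11.9 points (adjusted p = 0.0472). Further in, the authors' deposited table gives -15.3 points (chr14:115381001-115382000, adjusted p = 0.0738) and -11.1 points (chr14:115645001-115646000, adjusted p = 0.0242). All 3 were lower, the direction of most windows in that list. At week 3 the authors' deposited table holds one higher window at 13.9 points (chr14:115609001-115610000, adjusted p = 0.0142) and one lower at -12.5 points (chr14:116238001-116239000, adjusted p = 0.0531), so the gene as a whole had no one direction at that age. At week 24 the window of Gpc5 stood at 23.3 points in the authors' deposited table (chr14:115697001-115698000, adjusted p = 0.0475). It had the widest difference of the 17 and ranked 33 of 567 by size in its list.

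A stretch that begins 517 kb into Gpc5 held blood windows of all 3 ages. The higher window of week 3, the lower one of week 8 and the higher one of week 24 followed each other with gaps of 35 kb and 51 kb. Elsewhere in the gene the gaps between neighbouring windows ran from 62 kb to 288 kb. The 3 ages are separate comparisons at separate positions, and a difference between ages was not tested.

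**Figure D2:**
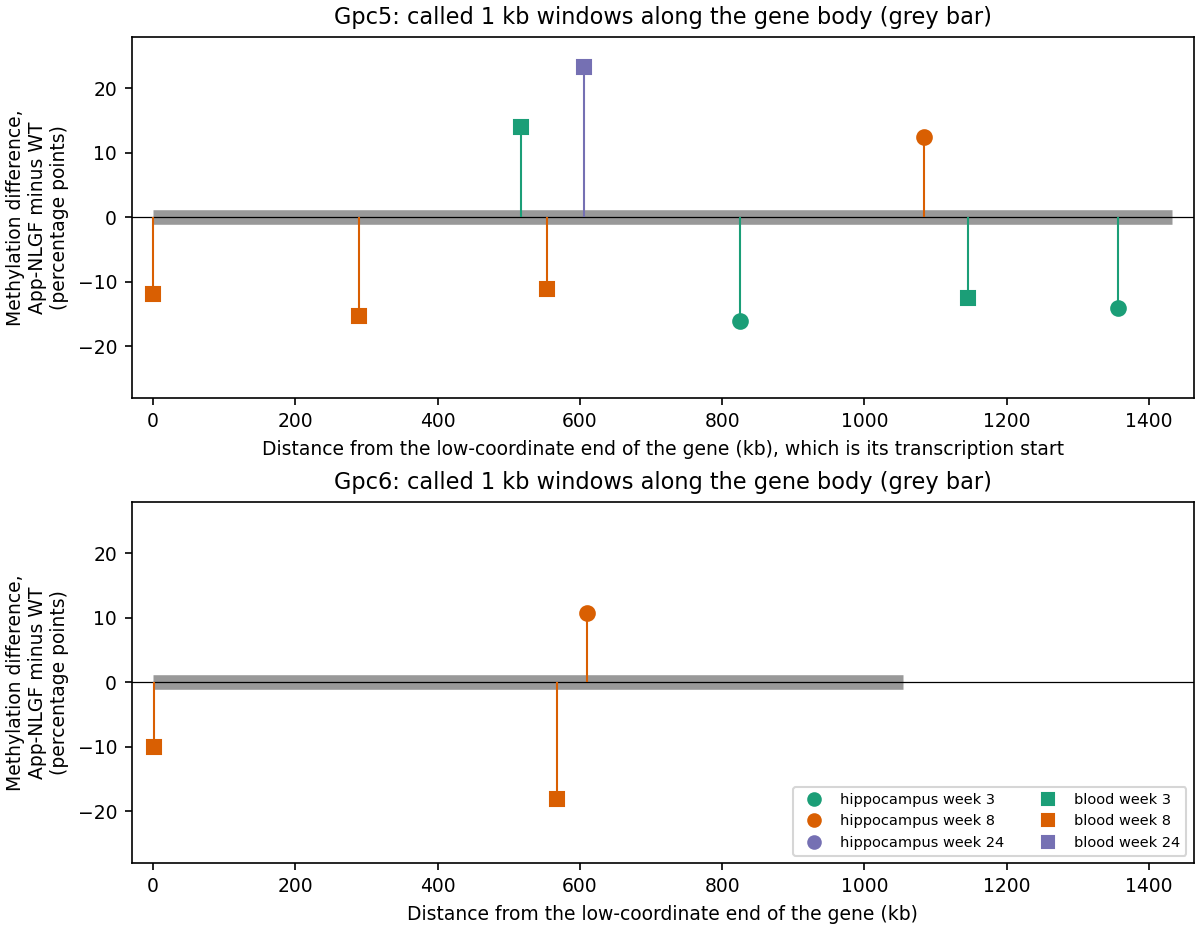
Called windows along Gpc5 (top) and Gpc6 (bottom), with distance from the low-coordinate end in kb on the x axis and the methylation difference (App-NLGF minus wild type, percentage points) on the y axis. Circles are hippocampus and squares blood, colour gives the week and the grey bar is the gene body. The 9 windows of Gpc5 are spread from its start to 76.2 kb before its end, and the 3 hippocampal ones lie in its distal part.

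Gpc6 held 3 windows, all at week 8. In blood, the window 1.08 kb inside its low-coordinate end was lower, at -10.03 points in the authors' deposited table (chr14:116926001-116927000). Its adjusted p, 0.00216, was the smallest of the 17 but ranked only 1186 of 4526 in its list. The Gpc1 window of blood at week 3 had a smaller unadjusted p and ranked 42 of 1153 by adjusted p in its list. The difference of the Gpc6 window was among the smallest of its list, ranking 4478 of 4526 by size. The second blood window was -18.1 points in the authors' deposited table (chr14:117493001-117494000, adjusted p = 0.0776), rank 239 of 4526. Hippocampus had its window 41 kb further on, higher at 10.7 points in the authors' deposited table (chr14:117535001-117536000, adjusted p = 0.0831). The 2 tissues thus had windows of opposite sign near the middle of Gpc6 at the same age, at positions that do not overlap. Between Gpc5 and Gpc6, a gap of 399.7 kb held 1 window, in blood at week 24, higher at 10.6 points (chr14:116666001-116667000) in the authors' deposited table.

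Gpc1 had neighbouring windows in both tissues at week 3. In the authors' deposited table the blood window was at -15.3 points (chr1:92833001-92834000, adjusted p = 0.00316) and the hippocampal one at -15.1 points in the next kilobase (chr1:92834001-92835000, adjusted p = 0.0210). Both were lower, and they began 1.36 kb and 2.36 kb inside the low-coordinate end of the gene, where the predicted gene Gm29481 overlaps it. Such pairs were few, but the number that scatter alone would give was not worked out. The 1024 hippocampal and 1153 blood windows of week 3 formed 3 pairs on the same or an adjacent window. Of these 2 were on the same window, 1 was adjacent, the pair at Gpc1, and 2 of the 3 had the same sign. Week 8 had 3 such pairs, 0 of the same sign, and week 24 had 2, with 1 of the same sign. Whether the tissues came from the same animals is not stated in the sources used here. A further Gpc1 window, higher in blood at week 24 at 12.01 points in the authors' deposited table (chr1:92863001-92864000, adjusted p = 0.0372), lay 2.79 kb beyond the other end of the gene, within Ankmy1.

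The remaining glypicans had 1 window or none. Gpc3 had a window inside its body in blood at week 3, higher at 18.1 points in the authors' deposited table (chrX:52406001-52407000, adjusted p = 0.0401). Gpc2 had 1 window in blood at week 8, lower at -10.6 points in the authors' deposited table (chr5:138264001-138265000, adjusted p = 0.0193). It lay 8.66 kb from Gpc2 and overlapped Map11, Gal3st4 and 6330418K02Rik, so it is not one of Gpc2 alone. Gpc4 had none, nor did the 107.5 kb between Gpc4 and Gpc3.

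The distance rule separated near values. The window furthest from a glypican that still counted was the one 8.66 kb from Gpc2. Just outside, 10.03 kb upstream of the Gpc3 start, blood at week 8 had a lower window at -12.4 points (chrX:52624001-52625000) in the authors' deposited table. Another, 14.7 kb from Gpc2, was at -10.4 points (chr5:138258001-138259000), also in blood at week 8, in the authors' deposited table. On the size threshold, the Gpc6 window at -10.03 points was the closest to the limit of 10 points.

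Per length, Gpc5 had more windows than most long genes. Counted with 10 kb on each side, it held 6.19 windows per Mb over the 6 lists (95% exact Poisson interval 2.83 to 11.8), which covers counting error only. All 6 glypicans together held 5.49 per Mb (3.20 to 8.79) and Gpc6 alone 2.79 (0.576 to 8.16). The other 4 glypicans held 8.77 per Mb (2.85 to 20.5) on 5 windows. Singly, the short genes Gpc1 and Gpc2 stood at 61.8 and 37.9 per Mb, Gpc3 at 2.77 and Gpc4 at 0. Gpc5 was thus not the densest glypican, although flanks make up much of the length counted for the short genes. The coding genes of at least 500 kb other than Gpc5 and Gpc6 held 2.78 per Mb, and X with the autosomes 3.43. Gpc5 and the other members were chosen with their counts known, so none of these intervals can serve to test them against either value. Of 227 coding genes of at least 500 kb, 15 were at least as dense as Gpc5, itself included, and 106 at least as dense as Gpc6. By number, Etl4 had 10 windows and Gpc5 9, the highest counts of the 21631 coding genes, and 18 genes were as long as Gpc5 or longer.

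A window in a given list is common among long genes. Of these 227 genes, 28.6% had one in hippocampus at week 3, 22.0% at week 8 and 26.0% at week 24. In blood the shares were 32.6%, 54.6% and 17.2%. Gpc5 had one in each list but hippocampus at week 24.

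**Figure D3:**
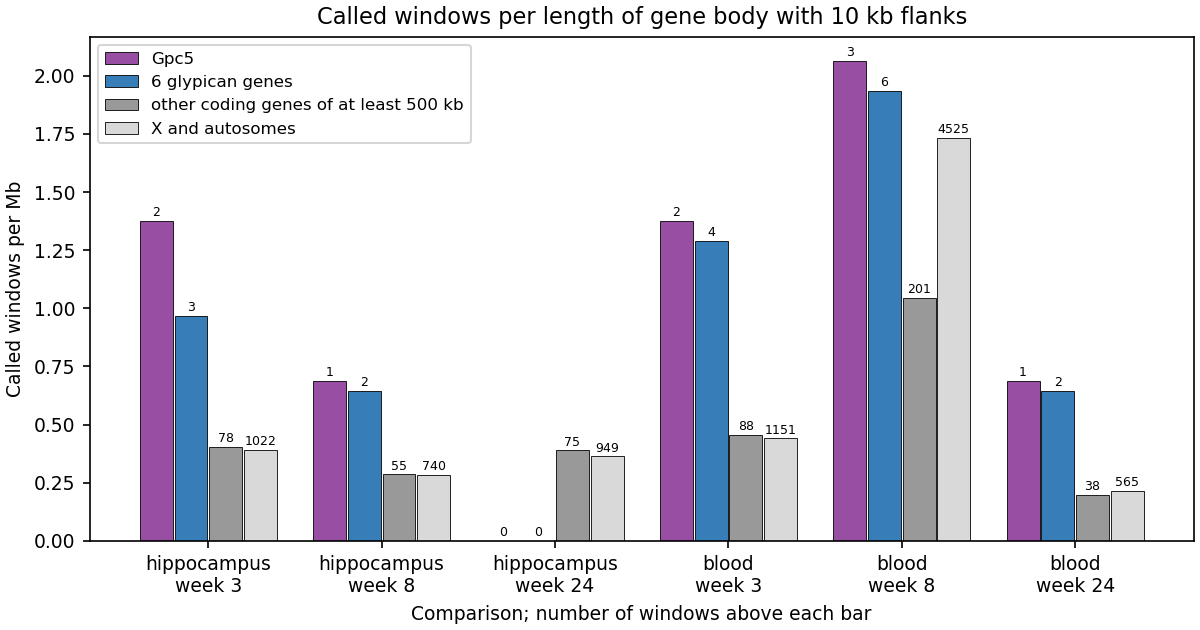
Called windows per Mb of gene body with 10 kb flanks in each list, for Gpc5, the 6 glypicans together, the other coding genes of at least 500 kb, and X with the autosomes from first to last gene. The number of windows stands above each bar, and the bars of Gpc5 rest on 0 to 3 windows each.

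The likeness of other coding genes to the pattern of lists and signs of Gpc5 was the number of shared pairs of list and sign divided by the pairs that either gene had, of 12 possible, and Gpc5 had 6. Dpp6, an auxiliary subunit of potassium channels, and Camta1, a transcription activator, each shared 4 pairs with Gpc5 (index 0.667). The splicing factor Rbfox1, the leucine-rich repeat gene Lingo2 and the cadherin Cdh13 also shared 4, with 1 pair of their own (index 0.571). These were the 3 nearest to Gpc5 in length of 6 genes tied at that index. The other 3 were Grm8, Lsamp and Limch1, and the tied genes ran from 0.311 Mb (Limch1) to 2.20 Mb (Lsamp). All pairs that Dpp6, Camta1, Rbfox1, Lingo2 and Cdh13 shared with Gpc5 had the direction of most windows in their list. Long genes hold more windows, and whether the likeness goes beyond length and these directions was not tested.

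The called windows at other heparan sulfate pathway genes were all lower in blood at week 8. Of 48 further genes for building, modifying, releasing or binding heparan sulfate, 23 had a window in some list, with 12 windows higher and 22 lower, where 26.7% of coding genes had a window in some list. The pathway genes with a window ran from 6.86 kb (B3gat3) to 2271 kb (Ptprd) in length. Long genes hold more windows, and the shares here and below do not take length into account. In blood at week 8, 16 of 48 (33.3%) had a window, all 19 windows were lower, and 18.8% of coding genes had a lower one. Blood at week 3 had 6 of 48, with 5 higher and 1 lower (1.77% and 1.06% of coding genes). Hippocampus at week 8 had 4 of 48, all higher (1.04% of coding genes), and at weeks 3 and 24 it had 2 of 48 each, 1 in each direction (2.6% and 2.43% of coding genes with a window of either direction). Blood at week 24 had 1 of 48, higher (1.04% of coding genes).

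Enzymes that start and extend the chains had 4 of 10 genes with a window in some list (26.7% of coding genes), 3 of them in blood at week 8 (19.5% of coding genes). The chain polymerase gene Ext1 had one 0.183 kb from its end in blood at week 8, at -11.4 points in the authors' deposited table. Its adjusted p, 5.52e-08, was the lowest of the pathway. In blood at week 8 the authors' deposited table also gives B3gat3, which builds the linker sugar, at -12.3 points and Extl1 at -11.1 points. The B3gat3 window lay 1.765 kb outside the gene. Xylt1, which places the initial sugar on the core protein, was higher in blood at week 3, at 21.6 points in the authors' deposited table (adjusted p = 0.0780).

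Sulfation genes had 7 of 16 members with a window in some list (26.7% of coding genes). The 3-O-sulfotransferase Hs3st4 had windows in 3 lists of the authors' deposited table, at 11.3 points in hippocampus at week 3, 12.2 points in blood at week 24 and -10.3 points in blood at week 8. Its relative Hs3st5 was higher at 11.3 points in hippocampus at week 8 and at 14.7 points in blood at week 3 in the authors' deposited table. For blood at week 8 the authors' deposited table has Hs3st3b1 at -14.3 points, Hs6st1 at -12.6 points, and Hs3st1 and Hs3st3a1 both at -10.2 points. The N-sulfation gene Ndst3 was lower in blood at week 3, at -14.7 points (adjusted p = 0.00448) in the authors' deposited table. Of the 19 pathway windows of blood at week 8, 7 lay within 1 kb of an end of their gene, namely those of Ext1, Extl1, Spock2, Hs3st1, Hs3st3a1, Hs3st3b1 and Hs6st1. Over all coding genes in that list, 45.9% of the 4988 pairs of a window and a gene were that close to an end of the gene, so 7 of 19 is not above the list as a whole. Among the glypicans, the Gpc5 window over the start is of this kind.

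The genes grouped under removal and cleavage had 4 of 5 members with a window, each of them with one in blood at week 8, where 19.5% of coding genes had one. The group takes in Hpse2 and Notum, whose action on heparan sulfate was not examined here. Sulf1 and Sulf2 remove sulfate groups outside the cell, and the authors' deposited table gives -19.3 points for Sulf1 and -12.9 points for Sulf2 in that list. The Sulf1 window lay 3.81 kb outside the gene. Hippocampus at week 24 also had a Sulf2 window, at -18.7 points (adjusted p = 0.0611) in the authors' deposited table. Hpse2, a heparanase relative, was at -20.02 points in blood at week 8 and at 11.9 points in blood at week 3 in the authors' deposited table. For Notum, a secreted hydrolase that acts on Wnt lipids, the window at -10.4 points in the authors' deposited table lay 9.79 kb from the gene.

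Other heparan sulfate core proteins had 5 of 11 members with a window in some list (26.7% of coding genes). Spock3, a brain extracellular matrix proteoglycan, was higher in blood at week 3 at 26.9 points in the authors' deposited table (adjusted p = 0.0859), the widest difference of the pathway. Its relatives in the authors' deposited table were Spock1 at 11.2 points in hippocampus at week 8 and Spock2 at -10.3 points in blood at week 8. The receptor gene Tgfbr3 was higher in hippocampus at week 8 at 12.1 points and in blood at week 3 at 11.2 points in the authors' deposited table. Its blood window lay 6.37 kb outside the gene. Sdc4 was the 1 syndecan of 4 with a window, which the authors' deposited table places 6.25 kb from the gene at -14.2 points in blood at week 8.

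Synaptic partners of glypicans or heparan sulfate had 3 of 6 members with a window in some list (26.7% of coding genes). Gpr158, a postsynaptic receptor that binds Gpc4, was higher in hippocampus at week 8 at 13.7 points (adjusted p = 0.0783) and at week 24 at 10.8 points (adjusted p = 0.0435) in the authors' deposited table. Those windows lay at chr2:21607001-21608000 and chr2:21630001-21631000. The receptor phosphatase Ptprs, which binds heparan sulfate chains, was lower at -11.7 points in hippocampus at week 3 and at -11.8 points in blood at week 8 (adjusted p = 1.40e-07) in the authors' deposited table. Ptprd, a relative of Ptprs and a very long gene, had 4 windows in blood at week 8, from -18.1 to -10.2 points in the authors' deposited table. Lrrtm4, a synaptic receptor for glypicans, had none.

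**Figure D4:**
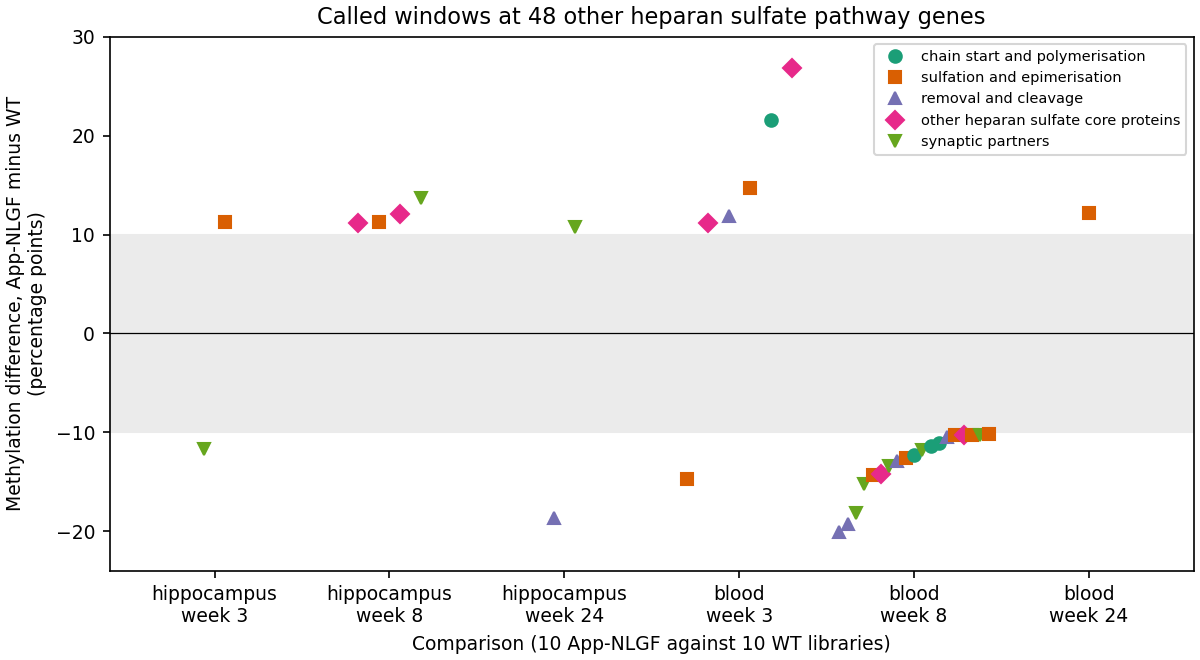
Methylation difference (App-NLGF minus wild type, percentage points) of each called window at the 48 other heparan sulfate pathway genes by tissue and week, with the symbol giving the role of the gene. All 19 windows of blood at week 8 lie below 0, and the 4 windows of hippocampus at week 8 lie above it.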

How the data were processed

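Genomic DNA was bisulfite converted and sequenced, so that unmethylated cytosine reads as thymine, and DNA of hippocampus and blood was extracted with different kits, per the labels' protocols. Per the submitters' processing notes, the tools were FastQC, Trim Galore, Bismark and methylKit (versions not given in the sources used here) and the build was mm10. The authors compared genotypes in each tissue and week and adjusted for sex, per the series' design text. The p-values and adjusted p-values are the authors' own, as deposited. The deposited methylation difference is a signed score in percentage points. The sources used here name no coverage filter, test or adjustment, and 0 columns of values per library were used.

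Windows were assigned to RefSeq genes (GRCm38.p6, 49554 on X and the autosomes) with pandas 2.3.3 in Python 3.11.15, and the assignment was tested on simulated intervals. All 6 glypicans and 48 of 48 pathway genes matched by symbol. Promoter sequences matched for Gpc2, Gpc3, Gpc4 and Gpc5. CG was counted on the gene's strand and reads the same on the other. Named were all glypicans, every pathway gene with a window described by role, and 5 genes most like Gpc5, with ties broken by nearness to its length (the other tied genes were added after their values were seen). The members, lists and settings were chosen with earlier results of these data known. No test was run. Alternatives were gene bodies alone, 50 kb flanks, an adjusted p under 0.01, at least 15 points, and merging within 10 kb.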

Additional observations from a re-analysis of the deposited data

How the results depend on the processing

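No paired analysis was possible because the deposited table holds no values per library, and for the same reason no library could be left out. Merging windows within 10 kb changed none of the 9 counts (each list, all lists, Gpc5, Gpc6), and 50 kb flanks kept each within 1.5 times, with 21 windows in place of 17 and 9 in place of 6 in blood at week 8. Gene bodies alone left 15 windows and took blood at week 24 from 2 to 1. An adjusted p under 0.01 left 2 of 17 windows, with 0 in hippocampus at week 3, 0 at week 8, 1 in blood at week 3, 1 at week 8 and 0 at week 24, and with 0 at Gpc5 and 1 at Gpc6. At least 15 points left 7 windows, with 0 in hippocampus at week 8, 2 in blood at week 3, 2 at week 8 and 1 at week 24, and with 3 at Gpc5 and 1 at Gpc6. These 2 settings keep fewer windows by construction. The count of hippocampus at week 24 was 0 under every setting tried. With depth unknown, thinly and deeply covered windows look alike here.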

Other observations

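MicroRNA clusters of the miR-17 family lie beside 3 glypicans in mouse, and 1 of them had a called window nearby. The cluster beside Gpc5, with the hairpins Mir17, Mir18, Mir19a, Mir20a, Mir19b-1 and Mir92-1, ends 47.7 kb before the gene. Its host transcript Mir17hg overlapped a lower window in blood at week 8, at -13.4 points in the authors' deposited table (chr14:115046001-115047000, adjusted p = 0.00245). That window lay 45.2 kb from Gpc5 and had a smaller adjusted p than any Gpc5 window of the same list. The higher Gpc5 window of blood at week 3 had a smaller unadjusted p, although its adjusted p was larger (0.0142). In blood at week 8, 18.8% of coding genes had a lower window within 10 kb. The share over all microRNA genes was not taken. The cluster on X, from Mir363 to Mir106a, begins 127.7 kb from Gpc3, and the cluster of Mir106b, Mir93 and Mir25 lies 107.8 kb from Gpc2. Neither had a called window within 2 kb of a hairpin. Mir149, which lies inside Gpc1, had none within that distance either.

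Beyond Gpc6, 39.5 kb from its high-coordinate end, blood at week 3 had a higher window at 14.1 points in the authors' deposited table (chr14:118019001-118020000, adjusted p = 0.0987). It overlapped Dct, a gene of melanin synthesis.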
